A study of Homo sapiens with 6 samples.

Results

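The aldehyde dehydrogenases examined here were 10 genes, read by symbol from the 58884 genes of the table: ALDH1A1, ALDH1A3, ALDH2, ALDH3A1, ALDH3A2, ALDH3B1, ALDH4A1, ALDH7A1, ALDH9A1 and ALDH18A1. The genes were chosen with earlier results of these data known. Each symbol occurred in the table, and 9 of the 10 genes were expressed highly enough to be tested. Expression was measured by RNA-seq in untreated KYSE70, an established line of human ESCC (esophageal squamous cell carcinoma) with a mutant NFE2L2 gene, and in NRF2null-KYSE70, derived from KYSE70 by CRISPR-Cas9 editing of NFE2L2, with 3 libraries of each line. NFE2L2 encodes NRF2, the transcription factor that drives antioxidant and detoxification genes. NRF2null-KYSE70 was monoclonal, so a difference between the lines was a difference between 1 clone and its parent, and the clone still showed a faint, shorter NRF2 protein in the study. Nothing in the labels says that the libraries came from separate cultures, so p-values measure only the spread between these libraries, which may be technical.

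Aldehyde dehydrogenases oxidize reactive aldehydes to carboxylic acids with NAD or NADP as the acceptor, and they differ in substrate and place in the cell. The ALDH1A enzymes turn retinal into retinoic acid, the ligand of nuclear receptors that guide epithelial differentiation, and high ALDH1A activity is widely used as a marker of stem-like tumor cells. ALDH2 clears acetaldehyde in mitochondria and is well known in the esophagus because its common inactive form raises the cancer risk of drinkers. ALDH3A1 and ALDH3A2 act on aldehydes from lipid peroxidation and on long-chain fatty aldehydes, and ALDH3A1 is known as a gene that NRF2 can induce. ALDH4A1, ALDH7A1, ALDH9A1 and ALDH18A1 work in amino acid and amine metabolism.

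The starts of 3 of the genes are shown because these genes moved most between the lines, 2 upward and 1 downward. Each sequence is the 250 bases before a transcription start in RefSeq, build GRCh38.p14, read on the strand of the gene, with the letters CCAAT in capitals where they occur. ALDH1A1 starts on the minus strand at chr9:72953054-72953303, ALDH1A3 on the plus strand at chr15:100879581-100879830, and the first of the ALDH3A2 starts on the plus strand at chr17:19647886-19648135.
ALDH1A1: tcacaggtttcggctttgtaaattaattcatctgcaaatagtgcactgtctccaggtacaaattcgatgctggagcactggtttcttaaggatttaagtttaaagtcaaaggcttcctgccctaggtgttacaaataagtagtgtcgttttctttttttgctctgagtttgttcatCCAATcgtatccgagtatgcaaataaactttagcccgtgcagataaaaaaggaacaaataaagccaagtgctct
ALDH1A3: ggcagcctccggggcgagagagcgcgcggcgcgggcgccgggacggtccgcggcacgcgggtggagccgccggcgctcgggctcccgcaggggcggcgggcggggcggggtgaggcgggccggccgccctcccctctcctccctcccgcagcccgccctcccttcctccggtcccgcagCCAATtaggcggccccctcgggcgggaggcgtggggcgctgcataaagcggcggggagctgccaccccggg
ALDH3A2: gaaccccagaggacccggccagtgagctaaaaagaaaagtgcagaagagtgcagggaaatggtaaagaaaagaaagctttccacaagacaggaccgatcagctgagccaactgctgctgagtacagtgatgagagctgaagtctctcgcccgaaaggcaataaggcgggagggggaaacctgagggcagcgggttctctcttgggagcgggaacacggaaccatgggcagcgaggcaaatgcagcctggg
The windows differed in composition. Over the whole window, which runs to 50 bases past the start, G and C made up 40.3% of the ALDH1A1 promoter, 55.0% of the first ALDH3A2 promoter and 81.7% of the ALDH1A3 promoter, and CG pairs numbered 7, 12 and 46. The window of the second ALDH3A2 start, which is not printed, was richer, with 73.3% G and C and 27 CG pairs. In GENCODE, 3 of the printed ALDH1A1 bases and 18 of the printed ALDH1A3 bases fell in an exon of another transcript, and none of the printed ALDH3A2 bases did.

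Promoters of 8 of the 10 genes were matched, 11 windows in all because some genes have more than 1 start, and ALDH2 and ALDH3A1 were not matched. The core of the antioxidant response element, searched as TGACNNNGC on both strands, was in 0 of the 11 windows, against 13.3% of 35116 human promoter windows of 300 bases. An AP-1 type element, TGACTCA, was also in 0 of the 11, against 4.95%. After these results were seen, CCAAT and TATAAA were searched too: CCAAT was in 4 of the 11 against 34.6% of all windows, and TATAAA in 0 of the 11 against 11.5%. The CCAAT letters began 74 bases before the start in ALDH1A1, 71 bases before it in ALDH1A3, 63 bases before it in ALDH7A1 and 30 bases before the second start of ALDH3A2. These are matches of letters in a short window and are not measured binding sites.

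NRF2null-KYSE70 library 1 stood apart from its replicates, with a chi-square per degree of freedom over genes of 23.4 and 23.0 against the others and 4.59 between those, and results that change without it are given with that value. The libraries held between 52072801 and 63975313 recovered reads, and between 21756 and 22466 genes had a read. NFE2L2 RNA remained at 61.4% of the parental level, 9928 ± 102 (SD, n = 3) normalized counts in KYSE70, against 6093 ± 319 in NRF2null-KYSE70. Normalized counts are reads per gene divided by a size factor of each library. All 9 squamous epithelial markers, such as KRT5 and TP63, were detected, and their summed level was 335354 to 341955 normalized counts in KYSE70 and 241019 to 250607 in NRF2null-KYSE70, most of it KRT5. These markers went both ways, with 5 lower, KRT5 and TP63 among them, and 4 higher, KRT6A (log2 fold change 0.69) and KRT14 (1.74) among them. Markers of other cell types also moved with the line. The 6 fibroblast markers summed to 1384 to 1618 against 485 to 638, nearly all of it COL1A1 and COL3A1, with COL1A2 and DCN at 0. PDGFRB went the other way, from 0 in every KYSE70 library to 14.3 ± 1.94 in NRF2null-KYSE70. The 4 leukocyte markers summed to 0.907 to 9.49 against 44.1 to 51.4, with PTPRC at 40.2 or more in each NRF2null-KYSE70 library. CD3E had at most 1 read in any library, and LYZ went from a mean of 2.41 in KYSE70 to 0. The 3 endothelial markers summed to 133 to 149 against 275 to 450.3, nearly all of it VWF. PECAM1 and CDH5 were at 0 in every KYSE70 library and had at most 1 read in any NRF2null-KYSE70 library. The part of these differences in the results below was not tested.

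Of the 9 genes tested, 5 were higher and 1 was lower in NRF2null-KYSE70 at an adjusted p under 0.05 by limma across all 15994 genes tested, and 3 did not pass. Among all genes tested, 57.6% passed that test, 29.3% higher and 28.3% lower, so a small p was common in this comparison. With the further demand of an absolute log2 fold change of 1 or more, ALDH1A1, ALDH1A3 and ALDH2 were higher and ALDH3A2 was lower, which makes 4 of 9, against 14.7% of all genes (7.23% higher and 7.43% lower). The median log2 fold change was 0.14 over the 9 genes and -0.01 over all genes tested. For 7 of the 9 genes no library of either line fell within the range of the other, 6 of them higher and 1 lower in NRF2null-KYSE70, against 63.4% of all genes (32.1% higher and 31.3% lower). In bulk RNA, fewer cells that express a gene and less RNA per cell cannot be told apart.

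**Figure D1:**
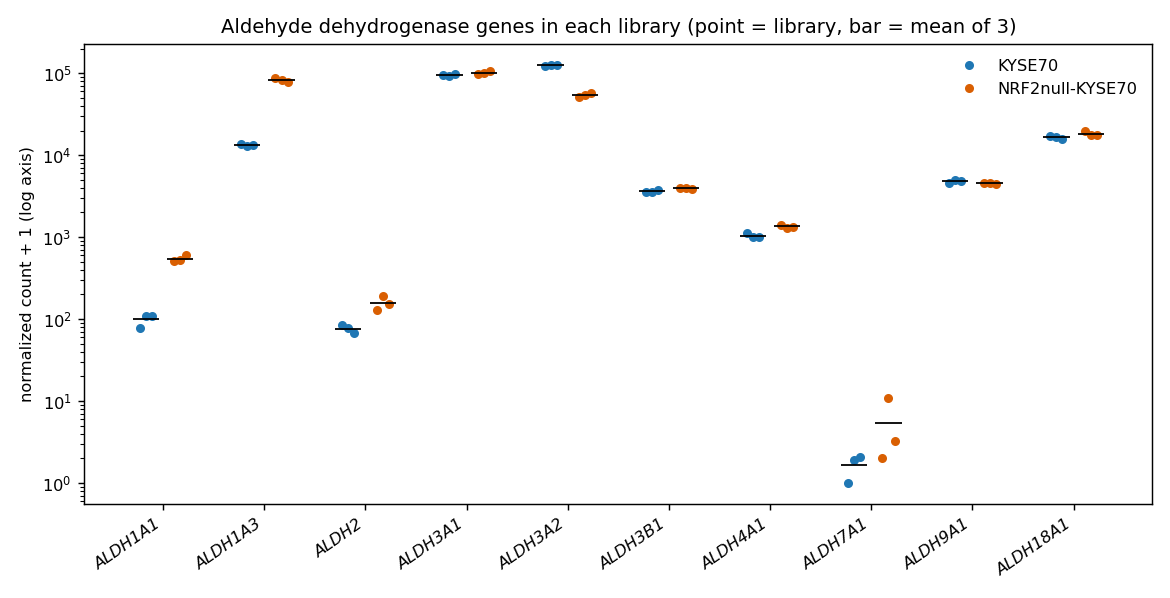
Normalized counts plus 1 (log axis) of the 10 aldehyde dehydrogenase genes, with 1 point per library, blue for KYSE70 and orange for NRF2null-KYSE70, and a bar at the mean of 3 libraries. ALDH1A1, ALDH1A3 and ALDH2 sit higher in NRF2null-KYSE70, ALDH3A2 sits lower, and ALDH7A1 lies near 0 reads in both lines.

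The retinal-oxidizing genes ALDH1A1 and ALDH1A3 rose in NRF2null-KYSE70 by similar folds from very different levels. ALDH1A3 (ENSG00000184254, chromosome 15, 100877714 to 100916626, plus strand, hg38) was the more abundant. It gave 13718, 12917 and 13325 normalized counts in the KYSE70 libraries, against 88199, 82824 and 79160.4 in the NRF2null-KYSE70 libraries. Every NRF2null-KYSE70 library lay far above every parental library. The means were 13319.8 ± 401 and 83395 ± 4546 (SD, n = 3), a 6.26-fold difference (log2 fold change 2.65, SE 0.051, limma adjusted p = 7.99e-13), and the log2 value became 2.31 when each gene was centred on the median of its chromosome arm. This was the largest change among the 9 tested genes except under that centring, in which ALDH1A1 was at 2.63. A long noncoding RNA on the opposite strand of ALDH1A3, AC015712.2 (ENSG00000259583), had 7.23 ± 5.44 normalized counts in KYSE70, against 47.1 ± 5.79 in NRF2null-KYSE70 (log2 fold change 2.82, SE 0.560, limma adjusted p = 0.000839). Whether the counting used strand is not stated, so reads of ALDH1A3 and of this partner cannot be told apart.

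ALDH1A1 (ENSG00000165092, chromosome 9, 72900671 to 73080442, minus strand) was a minor transcript in both lines. Its normalized counts were 77.4, 108.8 and 109.7 in KYSE70 and 504, 526 and 611 in NRF2null-KYSE70. The lowest NRF2null-KYSE70 library was well above the highest parental library. From 98.6 ± 18.4 to 547 ± 56.4 (SD, n = 3) the difference was 5.54-fold (log2 fold change 2.47, SE 0.164, limma adjusted p = 5.80e-08). ALDH1A2, another ALDH1A gene, which is outside the 10 genes, had 10.4 ± 2.79 normalized counts in KYSE70, against 24.3 ± 2.71 in NRF2null-KYSE70 (log2 fold change 1.17, SE 0.437, limma adjusted p = 0.0359). That call was lost in 6 of 14 alternative analyses, including without KYSE70 library 2 (adjusted p = 0.0960) and without each NRF2null-KYSE70 library in turn (adjusted p of 0.0698 to 0.116).

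The neighbors ALDH3A1 and ALDH3A2 on the short arm of chromosome 17 behaved differently. ALDH3A2, the membrane-bound fatty aldehyde dehydrogenase that is deficient in Sjögren-Larsson syndrome, fell to 43.4% of its parental level. ALDH3A1, a cytosolic enzyme abundant in the cornea and in many squamous tumors, did not pass the test. ALDH3A2 (ENSG00000072210) lies on the plus strand at 19648136 to 19685760 and ALDH3A1 (ENSG00000108602) on the minus strand at 19737984 to 19748943, with 52.2 kb between them.

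For ALDH3A2, the KYSE70 libraries held 123291, 126108 and 126299 normalized counts and the NRF2null-KYSE70 libraries 51892, 54019 and 57238. No NRF2null-KYSE70 library came near the parental range. The means of 125233 ± 1684 and 54383 ± 2692 (SD, n = 3) differed well beyond the spread (log2 fold change -1.20, SE 0.050, limma adjusted p = 8.46e-10). ALDH3A1 measured 94552, 92809 and 98406 normalized counts in KYSE70, against 97423, 100111 and 105497 in NRF2null-KYSE70. The lines overlapped, since KYSE70 library 3 exceeded NRF2null-KYSE70 library 1. The difference did not pass (log2 fold change 0.08, SE 0.051, limma adjusted p = 0.177), with a 95% confidence interval of -0.03 to 0.19, so a fall the size of that of ALDH3A2 lay well outside the interval. Without NRF2null-KYSE70 library 1 the log2 fold change of ALDH3A1 was 0.11 and passed the test (limma adjusted p = 0.0303).

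The ratio of ALDH3A2 to ALDH3A1, each per kilobase of exon, was 0.325 to 0.344 in the KYSE70 libraries and 0.135 to 0.137 in the NRF2null-KYSE70 libraries. This ratio is taken within a library and does not depend on the scaling between libraries. The gene on the other side of ALDH3A2, SLC47A1, which encodes an organic cation exporter, had 4245 ± 156 normalized counts in KYSE70, against 1939 ± 110.1 in NRF2null-KYSE70 (log2 fold change -1.13, limma adjusted p = 6.81e-09). Between the ALDH3 genes, SLC47A2, which overlaps the end of ALDH3A2 on the opposite strand, had 57.2 ± 4.07 and 83.1 ± 17.1 normalized counts (log2 fold change 0.51, limma adjusted p = 0.0864).

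**Figure D2:**
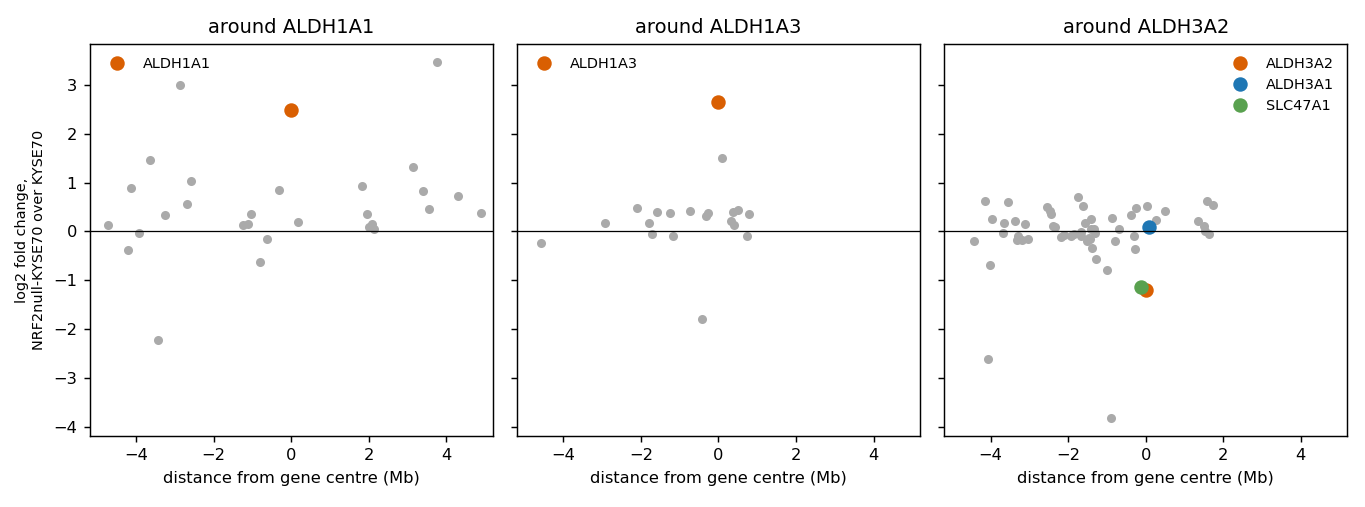
Log2 fold change of the tested genes within 5 Mb of ALDH1A1, ALDH1A3 and ALDH3A2, by distance from the gene in Mb, with the gene itself in orange and all others in grey except the named ALDH3A1 (blue) and SLC47A1 (green). ALDH1A3 at 2.65 stands above all of its neighbors, ALDH3A2 at -1.20 and SLC47A1 at -1.13 lie together, and ALDH3A1 at 0.08 lies among the other genes.

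Neighboring genes were read from the same fit. They were the next tested protein-coding genes along the chromosome, up to 10 on each side. Of the 20 around ALDH3A2, 2 passed both thresholds, SLC47A1 and FBXW10, both lower, and the median log2 fold change of the 20 was 0.10. Around ALDH1A3, 1 of 17 neighbors passed both thresholds, CERS3, which was lower, and the median was 0.36. The median over the long arm of chromosome 15 was 0.33, so ALDH1A3 sat on an arm that was higher in the clone. Around ALDH1A1, 4 of 20 neighbors passed and the median was 0.35, and within 5 Mb PRUNE2 at 3.47 and MAMDC2 at 2.99 were higher by more than ALDH1A1 itself.

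ALDH3B1, which acts on lipid-derived aldehydes at the plasma membrane, differed little. Its normalized counts were 3588, 3578 and 3785 in KYSE70 and 4017, 4008 and 3819.8 in NRF2null-KYSE70. The lines did not overlap but the gap was small (log2 fold change 0.11, SE 0.051, limma adjusted p = 0.0765), and the adjusted p was 0.0442 after centring on the chromosome arm.

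ALDH2, the mitochondrial acetaldehyde dehydrogenase on chromosome 12 (ENSG00000111275, 111766887 to 111817532, plus strand), was scarce in both lines and higher in NRF2null-KYSE70. The libraries gave 82.7, 78.0 and 66.4 normalized counts in KYSE70, against 129.8, 192 and 153 in NRF2null-KYSE70. All 3 NRF2null-KYSE70 libraries were above the parental ones, and they were also more scattered. The means were 75.7 ± 8.38 and 158 ± 31.5 (SD, n = 3), a 2.09-fold difference (log2 fold change 1.04, SE 0.206, limma adjusted p = 0.000818). The log2 fold change was 0.89 without NRF2null-KYSE70 library 2, 0.95 without KYSE70 library 3 and 0.97 under total scaling, each with an adjusted p under 0.05 but below the fold threshold. It was 1.41 after centring on the chromosome arm, whose median was -0.37. The nearer genes did not share that arm value. Over 20 tested protein-coding genes around ALDH2 the median was 0.09, with a range of -1.74 to 2.25. The genes on either side, ACAD10 and MAPKAPK5, were at 0.35 and 0.30.

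The mitochondrial genes of proline and ornithine metabolism rose slightly. ALDH4A1, which completes the breakdown of proline to glutamate, had 1137, 996 and 995 normalized counts in KYSE70, against 1405, 1302 and 1343 in NRF2null-KYSE70. Every NRF2null-KYSE70 library exceeded every parental library, by 1.29-fold on average (log2 fold change 0.37, SE 0.076, limma adjusted p = 0.00103). ALDH18A1, which works in the opposite direction and makes the precursor of proline and ornithine from glutamate, had 17282, 16746 and 15922 against 19566, 17836 and 17539. These libraries did not overlap either, but the gap was narrow (log2 fold change 0.14, SE 0.053, limma adjusted p = 0.0430). The call for ALDH18A1 was lost in 8 of 14 alternative analyses, among them leaving out KYSE70 library 2 or 3 (adjusted p = 0.101 and 0.176) or NRF2null-KYSE70 library 1 or 2 (adjusted p = 0.0877 and 0.0564).

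ALDH9A1, which acts on aminoaldehydes including an intermediate of carnitine synthesis, did not pass the test. Its libraries overlapped, at 4605, 4969 and 4779 normalized counts in KYSE70, against 4552, 4616 and 4448 in NRF2null-KYSE70. The difference was small (log2 fold change -0.08, SE 0.050, limma adjusted p = 0.215), with a 95% confidence interval of -0.18 to 0.03, and it was -0.15 with an adjusted p of 0.0200 when libraries were scaled to their total.

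ALDH7A1, the lysine-pathway enzyme whose loss causes pyridoxine-dependent epilepsy, was almost absent from both lines. It had 0, 1 and 1 reads in the KYSE70 libraries and 1, 10 and 2 reads in the NRF2null-KYSE70 libraries, so it was not tested and no fold is given. All 4 ALDH7A1 pseudogenes in the table were at 0 in every library. PHAX, the next gene on one side, had 3535 ± 40.9 and 3564 ± 194 normalized counts, so reads were recovered right beside it. How reads with several alignments were treated is not stated, so a low value for a gene with pseudogenes is uncertain.

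**Figure D3:**
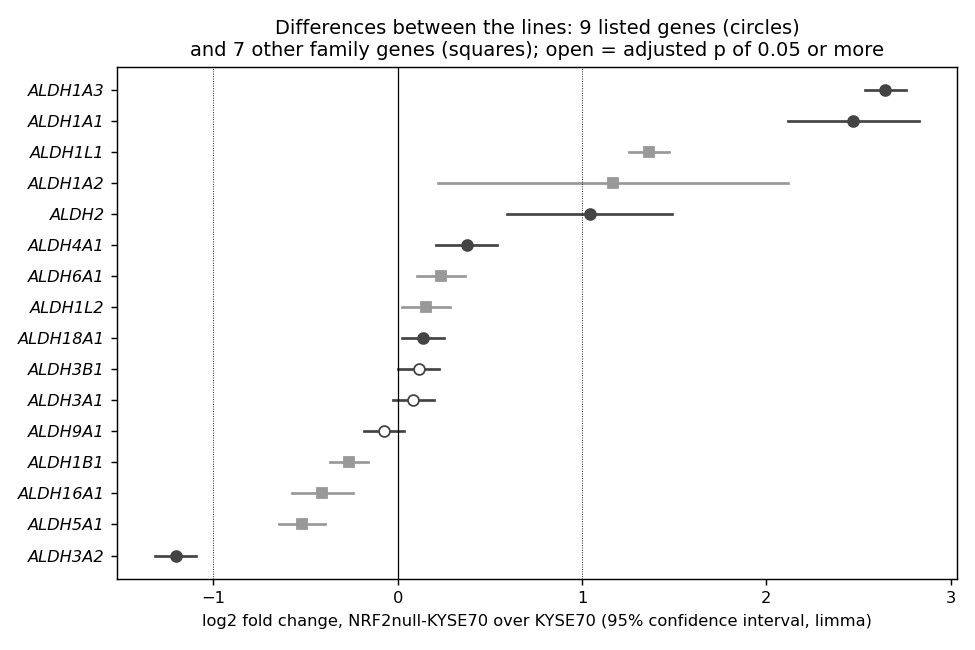
Log2 fold change of NRF2null-KYSE70 over KYSE70 with 95% confidence intervals (limma) for the 9 tested genes (circles) and 7 other tested genes of the family (squares), open where the adjusted p was 0.05 or more, with dotted lines at -1 and 1. ALDH1A3 and ALDH1A1 are at the top, at 2.65 and 2.47, and ALDH3A2 is the single gene below -1.

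Levels of different genes were compared per kilobase of exon, within the sum over all 19 human aldehyde dehydrogenase genes. In KYSE70 the order of mean levels began with ALDH3A1, ALDH3A2, ALDH18A1, ALDH1A3, ALDH1B1 and ALDH9A1. In NRF2null-KYSE70 it began with ALDH3A1, ALDH1A3, ALDH18A1, ALDH3A2, ALDH1B1 and ALDH9A1, so ALDH1A3 and ALDH3A2 exchanged places with this choice of length. Neighbors within these first 6 did not overlap between libraries of a line. Below them, ALDH16A1 and ALDH1L2 overlapped in KYSE70 and ALDH5A1 and ALDH6A1 in NRF2null-KYSE70, as did some of the lowest genes. ALDH2 ranked 15th and ALDH7A1 18th of the 19 in both lines.

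ALDH1A3 made up 5.39% ± 0.139 (SD, n = 3) of the length-scaled family total in KYSE70 and 27.6% ± 1.47 in NRF2null-KYSE70. ALDH3A2 went the other way, from 17.6% ± 0.346 to 6.25% ± 0.311. ALDH3A1 remained the largest part, at 53.0% ± 0.844 and 45.9% ± 1.86, and ALDH18A1 held 9.56% and 8.59%. The 3 ALDH1A genes together took 5.47% ± 0.126 of the total in KYSE70 and 27.9% ± 1.43 in NRF2null-KYSE70, nearly all of it ALDH1A3. The family total itself was 46329 ± 683 and 56716 ± 513 normalized counts per kilobase, 122% of the parental value in NRF2null-KYSE70. These shares are given as a description, with no test.

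The choice of length matters for ALDH3A2, whose annotated exons add up to 15331 bases, against 3828 in its longest coding transcript. With the longest coding transcript as the length, ALDH3A2 made up 32.7% of the total in KYSE70 and 13.4% in NRF2null-KYSE70, and ALDH1A3 3.84% and 22.7%. ALDH18A1 then held 4.96% and 5.15%, so its share no longer went down. ALDH3A1 then held 49.4% and 49.5%, and the family total in NRF2null-KYSE70 was 106% of the parental value. In NRF2null-KYSE70, ALDH3A2 then ranked 3rd rather than 4th, ALDH18A1 4th, ALDH9A1 5th and ALDH1B1 6th. The order of ALDH3A2 and ALDH18A1, and that of ALDH1B1 and ALDH9A1, thus depended on the length in that line. The gain of ALDH1A3 and the loss of ALDH3A2 were seen with either length.

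**Figure D4:**
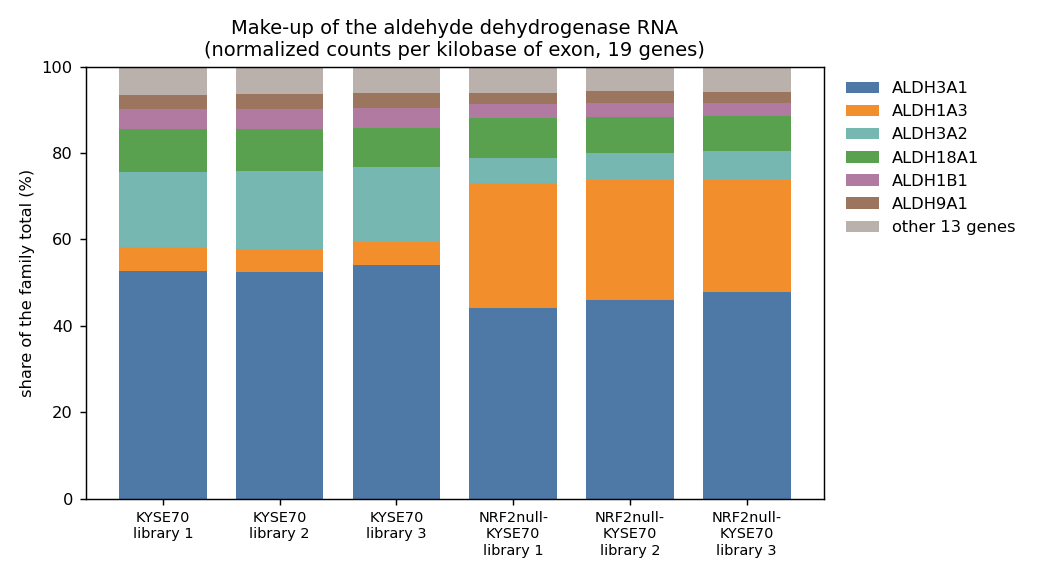
Share of each gene in the length-scaled total of 19 aldehyde dehydrogenase genes (percent, normalized counts per kilobase of exon), with 1 stacked bar per library. The ALDH1A3 share is 5.39% on average in KYSE70 and 27.6% in NRF2null-KYSE70, and the ALDH3A2 share is 17.6% and 6.25%.

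Outside the 10 genes, 7 of the 9 other human family genes were tested, and all 7 passed, with 4 higher and 3 lower, beside 29.3% higher and 28.3% lower among all genes. ALDH1L1, a folate enzyme, was the clearest, with 2106, 2211 and 2205 normalized counts in KYSE70, against 5537, 5532 and 5714 in NRF2null-KYSE70. The lines were far apart relative to their spread (log2 fold change 1.36, SE 0.050, limma adjusted p = 2.85e-10), and the value was 1.09 after centring on the chromosome arm. Of the next 20 tested protein-coding genes around it, 10 on each side, 8 passed both thresholds. Their log2 fold changes ran from -2.59 to 2.36, with a median of 0.42 over the 20. The genes on either side, SLC41A3 at 1.10 and KLF15 at 1.45, were both past both thresholds. Whether the region moved as a whole was not tested. Of the 7 family genes, ALDH1A2, described above, was the other past both thresholds. ALDH6A1, of valine breakdown, was higher by 0.23 on the log2 scale (limma adjusted p = 0.00458), and ALDH1L2, the mitochondrial counterpart of ALDH1L1, by 0.16 (limma adjusted p = 0.0411), a call lost in 6 of 14 alternative analyses, among them without KYSE70 library 2 or 3 and without NRF2null-KYSE70 library 1 (adjusted p = 0.0932, 0.156 and 0.111), while centring on the chromosome arm raised its log2 value to 0.52. The lower genes were ALDH5A1, which clears succinate semialdehyde from GABA breakdown, with a log2 fold change of -0.52 (limma adjusted p = 6.34e-06), ALDH16A1, with -0.41 (limma adjusted p = 0.000568), and ALDH1B1, a mitochondrial enzyme that oxidizes acetaldehyde and can also oxidize retinal, with -0.26 (limma adjusted p = 0.000398). ALDH3B2 and ALDH8A1 were too low to test.

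Genes on either side of retinal oxidation changed in both directions. The retinal supply list holds genes that make, reduce, store or carry retinal and retinol, so its counts are not a direction of supply. Of its 15 genes, 10 were tested, with 5 higher and 1 lower, beside 29.3% higher and 28.3% lower among all genes. The higher genes included DGAT1 at 0.33 and the lower gene was DHRS4 at -0.54. The median log2 fold change of the 10 was 0.15. SDR16C5, an epidermal retinol dehydrogenase that makes the substrate of ALDH1A3, had 66.7, 55.3 and 52.7 normalized counts in KYSE70, against 2285, 2648 and 2722 in NRF2null-KYSE70. It thus went from scarce to abundant in all 3 libraries (log2 fold change 5.43, SE 0.125, limma adjusted p = 4.00e-12). STRA6, the cell-surface receptor for retinol bound to its carrier, had 6.23, 22.7 and 17.9 against 84.2, 56.9 and 87.9 (log2 fold change 2.36, SE 0.440, limma adjusted p = 0.000514).

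Downstream of retinoic acid, the receptors and carriers included large falls. Of 5 tested receptor genes of 6 listed, 3 were lower and 1 was higher, beside 28.3% lower and 29.3% higher among all genes. RARB, a retinoic acid receptor that is itself induced by retinoic acid, averaged 319 ± 46.4 normalized counts in KYSE70, with no library under 290.3, and 21.9 ± 6.78 in NRF2null-KYSE70, with none over 29.7. The lines were widely separated (log2 fold change -3.83, SE 0.248, limma adjusted p = 4.48e-08). RARG and RXRA were lower by less, at -0.90 and -0.35, and RXRB was higher at 0.21.

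Of 5 tested genes for binding and breakdown of retinoic acid, of 6 listed, 1 was lower and 2 were higher. The shares among all genes were 28.3% lower and 29.3% higher. FABP5, a fatty acid-binding protein that can carry retinoic acid to PPARD, had 1483, 1543 and 1485 normalized counts in KYSE70, against 3.04, 21.6 and 22.8 in NRF2null-KYSE70. It was nearly lost (log2 fold change -6.86, SE 0.505, limma adjusted p = 1.46e-07), though FABP5 has near-identical pseudogenes and its reads are uncertain. CYP26A1, which degrades retinoic acid, was higher at 0.63, and CRABP1, a cytosolic carrier, at 0.91 (limma adjusted p = 0.0336). The count of higher genes in this list fell from 2 to 1 without KYSE70 library 1 or 3 or NRF2null-KYSE70 library 2 or 3. Of 8 tested genes known to respond to retinoic acid, of 10 listed and partly shared with the lists above, 2 were higher (STRA6 and CYP26A1), 2 were lower (RARB and NRIP1) and 4 did not pass, among them DHRS3 at -0.04. Without NRF2null-KYSE70 library 1, 4 genes of this response list were lower and 2 were higher.

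The alcohol oxidation list holds genes that make acetaldehyde, the substrate of ALDH2, and some related genes. Of its 9 genes, 4 were tested, with 1 higher and 1 lower, beside 29.3% higher and 28.3% lower among all genes. CYP2E1 had 2.67, 1.81 and 11.6 normalized counts in KYSE70, against 14.2, 24.5 and 30.8 in NRF2null-KYSE70, close together at low levels (log2 fold change 2.19, SE 0.660, limma adjusted p = 0.0126), and no gene of this list was higher without NRF2null-KYSE70 library 3. ADH5, the ubiquitous alcohol dehydrogenase, stood at 0.01 (limma adjusted p = 0.942). The lower gene was ESD at -0.33, a hydrolase that does not itself oxidize alcohol. The liver-type genes ADH1A and ADH6 were listed at 0.

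Around ALDH3A2, 8 of 10 genes of fatty aldehyde and sphingolipid metabolism were tested, with 3 higher and 3 lower. The shares among all genes were 29.3% higher and 28.3% lower. CYP4F3, which oxidizes long-chain lipids at their end, was the single gene past both thresholds. It had 196, 203 and 187 normalized counts in KYSE70, against 30.4, 49.0 and 29.7 in NRF2null-KYSE70 (log2 fold change -2.43, SE 0.239, limma adjusted p = 2.15e-06), and its reads may be shared with close relatives such as CYP4F2. SGPL1, whose reaction yields a fatty aldehyde that ALDH3A2 oxidizes, was higher at 0.29, as were SPHK1 at 0.61 and FAR1 at 0.26, while HACL1 and PHYH were lower at -0.35 each.

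Of 6 tested genes of proline and ornithine metabolism, of 8 listed, 5 were higher and none was lower, beside 29.3% higher among all genes. PRODH, the enzyme just before ALDH4A1, was scarce, with 13.3, 9.07 and 14.8 normalized counts in KYSE70, against 36.5, 30.4 and 32.0 in NRF2null-KYSE70 (log2 fold change 1.36, SE 0.393, limma adjusted p = 0.00973). PYCR1, which finishes proline synthesis after ALDH18A1, was abundant and higher at 0.83 (limma adjusted p = 1.98e-08). ARG2 was higher at 0.67 and OAT at 0.14, while PYCR3 stood at -0.10 (limma adjusted p = 0.200). When libraries were scaled to their total, 3 genes of this list were higher and 1 was lower.

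Of 6 tested genes of lysine breakdown, of 7 listed, 3 were higher and 1 was lower, and none passed both thresholds. Beside this list and the next, the shares among all genes were 29.3% higher and 28.3% lower. AASS, which opens the main route that leads to ALDH7A1, was lower at -0.90 (limma adjusted p = 1.71e-06), and PIPOX, of the pipecolate route, was higher at 0.80 (limma adjusted p = 4.22e-08). Of 9 tested genes of amines, polyamines and carnitine, of 11 listed, 5 were lower and 2 were higher, and 3 were lower without KYSE70 library 2. SAT1, which acetylates polyamines for breakdown or export, had 6177, 6530.1 and 6432 normalized counts in KYSE70, against 14617, 14637 and 16112 in NRF2null-KYSE70 (log2 fold change 1.24, SE 0.051, limma adjusted p = 7.44e-10). The lines were far apart for SAT1. MAOA, which makes aldehydes from amines, had 4.94 ± 1.59 and 22.7 ± 6.84 (log2 fold change 2.00, limma adjusted p = 0.00593), and BBOX1, the last enzyme of carnitine synthesis, had 34.0 ± 10.6 and 10.9 ± 9.37 (log2 fold change -1.79, limma adjusted p = 0.0131).

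**Figure D5:**
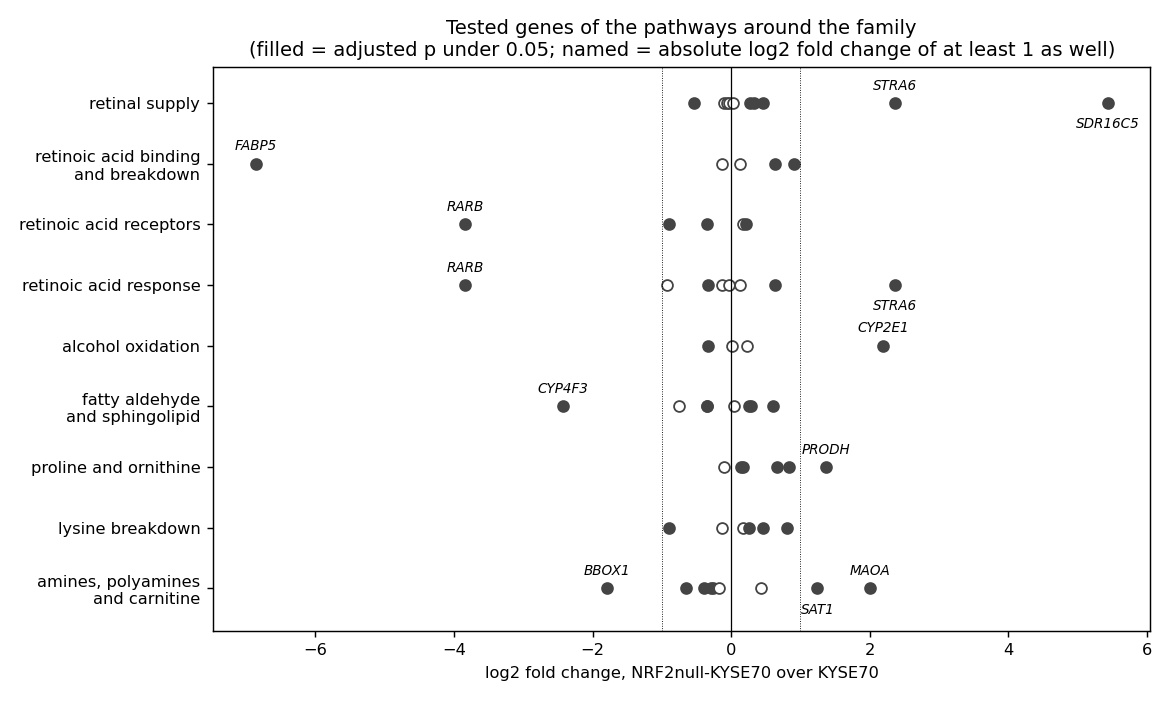
Log2 fold change of NRF2null-KYSE70 over KYSE70 for each tested gene of 9 pathway lists around the family, with 1 point per gene, filled where the limma adjusted p was under 0.05, and named where the absolute log2 fold change was also at least 1. SDR16C5 at 5.43 is the farthest to the right and FABP5 at -6.86 the farthest to the left, and most genes lie between -1 and 1.

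Over the 9 lists together, 55 of 76 genes were tested, 22 were higher and 16 were lower at an adjusted p under 0.05, and 10 passed both thresholds, beside 29.3%, 28.3% and 14.7% of all genes tested. The median log2 fold change of the 55 was 0.04. The lists overlap in part, and each shared gene was counted once.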

How the data were processed

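RNA-seq libraries of KYSE70 and NRF2null-KYSE70 were compared, 3 of each. Per the labels, the authors used FastQC 0.11.5, cutadapt 1.12, STAR 2.6.90c and featureCounts 1.5.1 on hg38, and their methods normalized with DESeq2; strand and the treatment of reads with several alignments were not stated. The deposited values were normalized counts, a signal equal to reads divided by a size factor per library, and all values came out as whole reads within 0.01. Columns carried no replicate number, so libraries are numbered by column order.

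Genes with a mean of at least 10 normalized counts (15994 of 58884) were tested with limma 3.58.1 in R 4.3.3 (trend) on log2(normalized count + 1), two-sided, with Benjamini-Hochberg adjustment over all of them. Fold changes are on that scale, which understates the change of low genes, and mean ± SD is on normalized counts. Exon lengths and positions came from GENCODE v44 on hg38 and promoters from RefSeq. The methods name a RefSeq annotation for counting while the table has Ensembl identifiers, so levels per kilobase may rest on other exons than those counted. Alternatives were edgeR 4.0.16 and DESeq2 1.42.0 on recovered reads, other pseudocounts (0.1 and 5), no filter, TMM and total scaling, centring on chromosome arms, another length and leaving out each library. Scripts were tested on simulated data. No pair of libraries within a line was a duplicate.

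The genes, lists and tests were chosen with earlier results of these data known. Named were the 10 genes, the 9 other family genes, NFE2L2, up to 3 genes per pathway list with the largest change past both thresholds, overlapping genes and the 3 genes nearest in pattern to the most changed gene. Other list genes, ALDH neighbors and motifs CCAAT and TATAAA were chosen after their values were seen.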

Additional observations from a re-analysis of the deposited data

How the results depend on the processing

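No paired analysis was possible because libraries in the deposited table are named by cell line and not by replicate. No log2 fold change of the 16 tested family genes changed sign in the 14 alternatives. The count of all genes past both thresholds was 2344 and ranged from 2186 to 2858 over 14 alternatives, and the share of lower genes among them, 50.7%, ranged from 47.9% without KYSE70 library 3 to 56.1% under total scaling, which shifted the median of all genes to -0.08. The 10 genes gave 3 to 4 calls past both thresholds. With total scaling 2 of them were lower, no receptor gene was higher (0), and the proline genes had 3 higher and 1 lower. With no filter on low values, 2 other family genes were higher, 2 retinal supply genes were lower, 1 binding or breakdown gene was higher and 2 alcohol oxidation genes were higher. With arm-centring, retinal supply had 2 lower and 3 higher, binding and breakdown 1 higher, alcohol oxidation 2 lower, proline genes 1 lower, and amine genes 3 lower. With edgeR, 1 binding or breakdown gene was higher. Leaving out 1 library gave 2 to 4 other family genes higher (2 without KYSE70 library 2 or NRF2null-KYSE70 library 1), 1 to 2 binding genes higher, 1 to 2 receptors higher (2 without NRF2null-KYSE70 library 2), 2 to 4 response genes lower (4 without NRF2null-KYSE70 library 1), 0 to 1 alcohol genes higher, and 3 to 5 amine genes lower. The cause was not tested. Small counts limit ALDH7A1, ALDH2, ALDH1A2, STRA6, CRABP1, CYP2E1, MAOA, BBOX1 and PRODH.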

Other observations

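Over the 6 libraries, the genes whose log2 levels, each centred on its own mean, lay nearest to those of ALDH1A3 among genes with a mean of at least 100 were FGFBP1, MFAP5 and SEMA3A, at root mean square differences of 0.0762, 0.0767 and 0.0776. FGFBP1, which releases fibroblast growth factors from the matrix, had 1023 ± 51.0 (SD, n = 3) normalized counts in KYSE70, against 6731 ± 127 in NRF2null-KYSE70. MFAP5, a microfibril protein, had 4951 ± 147 and 34027 ± 449. SEMA3A, a secreted guidance protein, had 409.8 ± 23.6 and 2815 ± 119.6. Such a likeness over 6 libraries in 2 groups is set mostly by the fold between the lines.

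The genes that overlap the other listed genes in the annotation were at 0 or low. AC005722.3, on the strand opposite ALDH3A1, had 13.3, 5.44 and 2.11 normalized counts in the KYSE70 libraries and 11.2, 1.96 and 6.85 in the NRF2null-KYSE70 libraries.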
